A study of Mus musculus with 2 samples.

Results

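The genes described here encode the signalling system of transforming growth factor beta (TGF-beta), the bone morphogenetic proteins (BMPs) and the activins, profiled in regulatory innate lymphoid cells (ILCregs) of the mouse small intestine. They were chosen by name, from a list of 53 ligands, latency and activation factors, receptors, SMAD proteins and regulators. Of these, 47 were measured, each through 1 array feature whose platform annotation carried exactly that symbol, out of 28279 genes named on the array. Bambi, Ltbp3, Smad2, Smad4, Smad7 and Tgif1 were not analysed here. The donors were C57BL/6 mice, 8 weeks old, of the genotype IL-10-GFP knockin, in which green fluorescent protein sits at the interleukin 10 locus, and post-sort purity was stated as over 95%. The series holds 1 group of 2 arrays, replicate 1 and replicate 2, with no other cell population. Whether these stem from separate mice or sorts is not given in the labels, and the spread between the arrays may thus be technical only. No p-value is given, since the design has no groups to compare.

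TGF-beta ligands are made as precursors that stay bound to a latency peptide, often tethered to a latent TGF-beta binding protein in the matrix or to a surface carrier, until they are released. Released ligand joins type II and type I receptor kinases, which phosphorylate SMAD2 and SMAD3 in the TGF-beta and activin arms and SMAD1, SMAD5 and SMAD9 in the BMP arm, and these enter the nucleus with SMAD4. In the gut, TGF-beta restrains inflammation and shapes intraepithelial and regulatory lymphocytes, while BMPs and their antagonists from the mesenchyme pattern the crypt and villus epithelium.

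Values are the authors' deposited log2 signals, 1 per array. A gene was called above the threshold if its signal exceeded the 95th percentile of 1678 olfactory, vomeronasal and taste receptor genes (the chemoreceptor genes), which lay at 6.74 in replicate 1 and 6.19 in replicate 2. Of the 47 genes, 29 (61.7%) were above it on both arrays, a further 6 on 1 of them and 12 on neither. Over all named genes 31.7% were above it on both arrays and 7.53% on exactly 1, and over protein-coding genes other than the chemoreceptor genes 38.9% were above it on both. All 47 genes are protein-coding. Their median signal was 8.12, against 5.43 over all named genes and 6.06 over those protein-coding genes. Probes differ in affinity, so the signal of a gene says nothing of its abundance next to another gene, and a gene under the threshold is not shown to be absent.

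**Figure D1:**
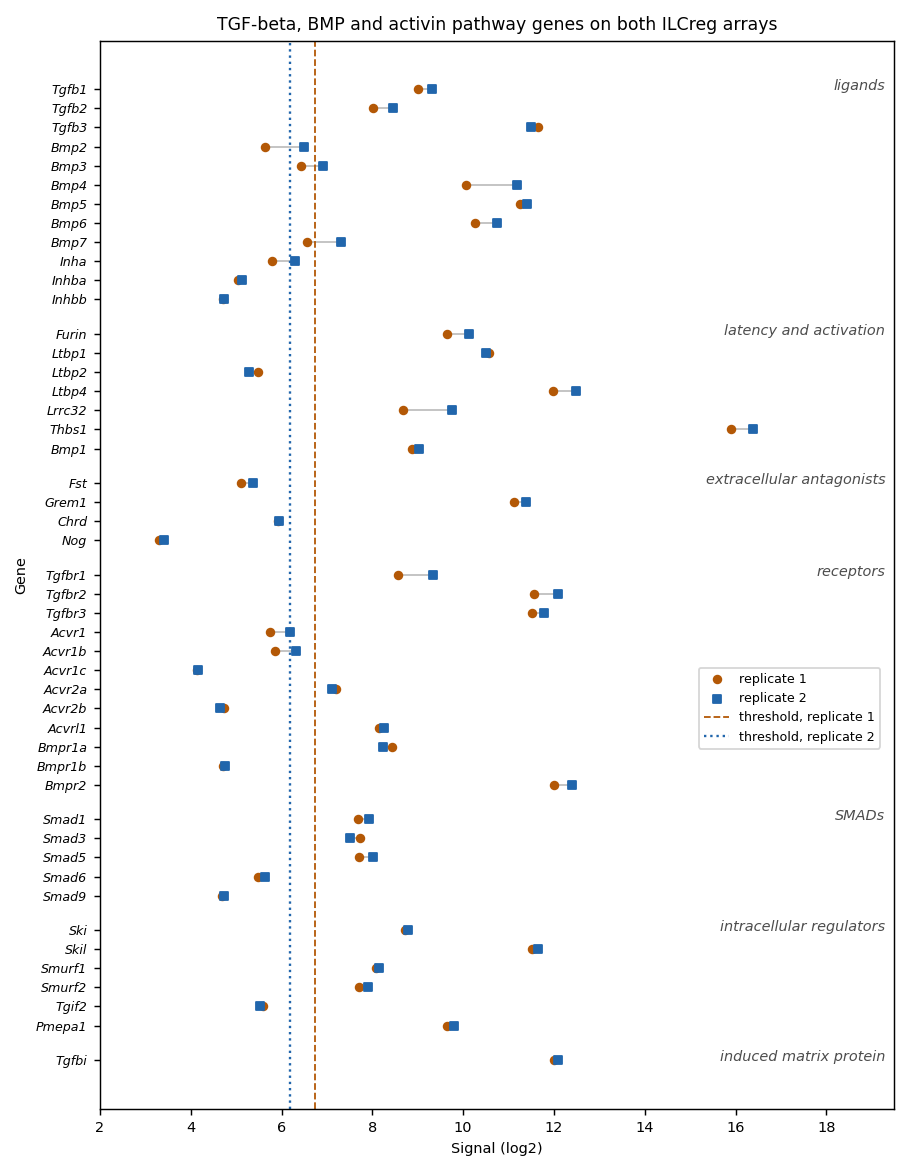
Log2 signal of each of the 47 genes (rows, grouped by role) in replicate 1 (circles) and replicate 2 (squares), with each array's threshold as a vertical line (6.74 and 6.19). Tgfb1, Tgfb2 and Tgfb3 lie right of both lines, while Inhba and Inhbb lie left of both.

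The upstream sequence is shown for ligand genes of each arm and for the antagonist gene Grem1, because the arms differed in how many of their ligand genes passed. The windows are the 250 bases before the annotated start in RefSeq, build GRCm38.p6, written 5′ to 3′ on the strand of the gene. Capitals mark CAGAC, the SMAD-binding core, or its reverse complement GTCTG. They also mark GGCGCC, a GC-rich element of the kind bound by BMP-activated SMADs, which reads the same on either strand. GTCTG and GGCGCC can share 1 base. Tgfb1 is from chr7:25686752-25687001 (plus strand) and Tgfb2 from chr1:186705990-186706239 (minus strand). Bmp4 is from chr14:46390670-46390919 (minus strand), Bmp6 from chr13:38345466-38345715 (plus strand), Grem1 from chr2:113758649-113758898 (minus strand) and Inhba from chr13:16011601-16011850 (plus strand).
Tgfb1: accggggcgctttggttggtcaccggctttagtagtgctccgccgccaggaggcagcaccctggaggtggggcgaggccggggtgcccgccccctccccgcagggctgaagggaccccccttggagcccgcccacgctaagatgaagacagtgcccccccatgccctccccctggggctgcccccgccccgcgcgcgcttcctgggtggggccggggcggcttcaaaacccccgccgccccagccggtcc
Tgfb2: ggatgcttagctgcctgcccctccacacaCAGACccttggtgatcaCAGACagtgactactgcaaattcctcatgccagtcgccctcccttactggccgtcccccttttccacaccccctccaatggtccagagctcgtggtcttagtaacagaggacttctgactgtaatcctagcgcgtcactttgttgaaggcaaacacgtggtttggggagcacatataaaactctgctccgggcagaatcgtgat
Bmp4: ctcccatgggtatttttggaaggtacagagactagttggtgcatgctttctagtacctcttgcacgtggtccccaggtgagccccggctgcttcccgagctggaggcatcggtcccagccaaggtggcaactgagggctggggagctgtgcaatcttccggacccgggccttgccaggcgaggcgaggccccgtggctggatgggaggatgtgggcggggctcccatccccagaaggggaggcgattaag
Bmp6: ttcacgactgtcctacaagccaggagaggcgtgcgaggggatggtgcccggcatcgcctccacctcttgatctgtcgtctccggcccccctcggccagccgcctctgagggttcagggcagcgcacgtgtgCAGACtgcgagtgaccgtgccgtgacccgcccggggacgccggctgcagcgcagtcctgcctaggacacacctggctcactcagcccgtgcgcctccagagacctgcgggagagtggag
Grem1: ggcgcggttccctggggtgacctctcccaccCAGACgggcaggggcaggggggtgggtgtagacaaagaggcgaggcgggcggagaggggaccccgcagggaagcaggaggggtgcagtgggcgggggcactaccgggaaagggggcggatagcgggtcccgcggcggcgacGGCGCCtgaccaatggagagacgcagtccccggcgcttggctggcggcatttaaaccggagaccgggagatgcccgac
Inhba: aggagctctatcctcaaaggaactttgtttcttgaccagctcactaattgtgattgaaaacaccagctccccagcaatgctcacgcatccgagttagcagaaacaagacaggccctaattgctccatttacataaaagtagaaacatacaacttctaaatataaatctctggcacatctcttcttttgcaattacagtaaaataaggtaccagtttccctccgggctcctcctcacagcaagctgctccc
CAGAC was matched 2 times for Tgfb2 and 1 time each for Bmp6 and Grem1, and GGCGCC 1 time for Grem1. Tgfb1, Bmp4 and Inhba held no match to either motif in this window. Of 34 of the 47 genes with a window in the table, 15 held CAGAC or GTCTG (44.1%). This was close to the 42.1% of all 27025 genes with a window and the 40.9% of protein-coding ones. GGCGCC was found for 9 of the 34 (26.5%), against 9.54% of all genes and 12.1% of protein-coding genes. The windows of these genes were also richer in CpG, with a median of 22 CpG dinucleotides, against 6 over all genes and 10 over protein-coding genes. Among the 21 of these genes above the signal threshold on both arrays, 11 held CAGAC or GTCTG and 7 held GGCGCC. Among the other 13, 4 and 2 did. These are matches of letters, not shown to be bound.

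All 3 TGF-beta ligand genes were above the threshold on both arrays. Tgfb1, whose product is the main TGF-beta of immune cells, had a signal of 9.01 in replicate 1 and 9.32 in replicate 2. Tgfb2 had 8.01 and 8.46. Tgfb3 had 11.65 and 11.49, and was the only ligand gene of the 12 whose centred signal was lower in replicate 2. All 3 stood at least 1.27 above each array's threshold.

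The BMP ligand genes were divided, with 3 of 6 above the threshold on both arrays and 3 in replicate 2 only. Bmp4, which encodes a ligand of the intestinal mesenchyme, had 10.07 in replicate 1 and 11.18 in replicate 2. Bmp5 had 11.26 and 11.41, and Bmp6, which encodes an inducer of the iron hormone hepcidin in liver, had 10.26 and 10.74. These 3 were far from the threshold on each array. Bmp2 (5.63 and 6.50), Bmp3 (6.42 and 6.91) and Bmp7 (6.57 and 7.31) were under it in replicate 1 and above it in replicate 2. The threshold was lower in replicate 2 (6.19, against 6.74), and the 6.50 of Bmp2 lay under that of replicate 1. With the 90th percentile as the threshold Bmp3 and Bmp7 passed on both arrays.

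No activin or inhibin subunit gene was above the threshold on both arrays. Inhba, the beta A subunit of activin A, had 5.04 in replicate 1 and 5.12 in replicate 2. Inhbb, the beta B subunit, had 4.71 and 4.74. Both were more than 1 below the threshold of each array. Inha, the alpha subunit that turns the dimer into inhibin, had 5.78 and 6.30 and passed only in replicate 2, by 0.12.

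Most genes of latency and activation were above the threshold, 6 of 7 on both arrays. Thbs1, encoding thrombospondin 1, which can release TGF-beta from its latency peptide, had 15.91 in replicate 1 and 16.38 in replicate 2. Ltbp1 and Ltbp4, encoding latent TGF-beta binding proteins, had 10.56 and 10.50, and 11.99 and 12.48. Ltbp2, whose product belongs to the same family but does not bind latent TGF-beta, had 5.48 and 5.29 and was under the threshold on both arrays. Lrrc32, encoding the surface carrier GARP that displays latent TGF-beta on regulatory T cells and platelets, had 8.68 and 9.76. Furin, the protease that cuts the ligand precursors, had 9.64 and 10.14. Bmp1, which despite its name encodes a metalloprotease of matrix precursors and of chordin rather than a BMP ligand, had 8.87 and 9.03.

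Of the extracellular antagonists, Grem1 alone among the 4 measured was above the threshold. Grem1, a BMP antagonist of the stroma around the crypts, had 11.13 in replicate 1 and 11.38 in replicate 2. Chrd, encoding chordin, had 5.93 and 5.95, and Nog, encoding noggin, had 3.30 and 3.42. Fst, encoding the activin binder follistatin, had 5.10 and 5.38. The last 3 were under the threshold on both arrays, Chrd by 0.23 in replicate 2 and Nog by more than 2 on each.

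The receptor genes followed the same division by arm. All 3 TGF-beta receptor genes were above the threshold on both arrays. Tgfbr1, the type I receptor kinase, had 8.56 in replicate 1 and 9.34 in replicate 2. Tgfbr2, the type II receptor kinase, had 11.57 and 12.08, and Tgfbr3, the co-receptor betaglycan, had 11.51 and 11.78. Of the 5 BMP receptor genes 3 passed on both arrays. These were the type II receptor gene Bmpr2 (12.00 and 12.40), the type I receptor gene Bmpr1a (8.44 and 8.24) and Acvrl1, the type I receptor known from endothelium (8.14 and 8.26). Bmpr1b, the other BMP-specific type I receptor gene, was at 4.72 and 4.75. Acvr1, also a type I receptor of BMPs, had 5.74 and 6.19, and its signal in replicate 2 equalled the threshold to 2 decimals. A type I and a type II receptor gene were thus above the threshold for TGF-beta and for BMPs.

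For the activins, 1 of 4 receptor genes passed on both arrays. Acvr2a, a type II receptor gene shared by activins and BMPs, had 7.21 in replicate 1 and 7.12 in replicate 2, 0.47 above the threshold of replicate 1. Its paralogue Acvr2b had 4.73 and 4.65. The type I receptor genes Acvr1b and Acvr1c had 5.85 and 6.31, and 4.14 and 4.17, and only Acvr1b passed, in replicate 2 by 0.12. No type I receptor gene of the activin arm was therefore above the threshold on both arrays.

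Of the SMAD genes measured, 3 of 5 were above the threshold on both arrays. Smad3, of the TGF-beta and activin arms, had 7.73 in replicate 1 and 7.50 in replicate 2. Smad1 (7.69 and 7.93) and Smad5 (7.71 and 8.01), of the BMP arm, also passed. All 3 stood 0.95 to 1.82 above the threshold of each array, and with the 99th percentile of the chemoreceptor genes as the threshold none of them passed. Smad9, the third BMP-activated SMAD, was at 4.68 and 4.74, and the inhibitory Smad6 at 5.49 and 5.63, under the threshold on both arrays.

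Of 6 intracellular regulators measured, 5 were above the threshold on both arrays. Skil, encoding the SMAD co-repressor SnoN, itself induced by TGF-beta, had 11.51 in replicate 1 and 11.65 in replicate 2, and its relative Ski had 8.73 and 8.78. Pmepa1, a TGF-beta-induced gene whose product limits receptor signalling, had 9.65 and 9.79. The ubiquitin ligase genes Smurf1 (8.08 and 8.15) and Smurf2 (7.70 and 7.90) passed, and the co-repressor gene Tgif2 (5.60 and 5.52) did not. Tgfbi, a matrix protein gene named for its induction by TGF-beta, had 12.01 and 12.08. These 7 genes differed little between the arrays, with an SD of 0.14 or less each (n = 2).

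Set side by side, 13 of 14 genes of the TGF-beta arm were above the threshold on both arrays and 9 of 18 of the BMP arm. So were 1 of 8 of the activin arm and 6 of 7 genes shared by the arms. The share was 31.7% over all named genes and 38.9% over protein-coding genes other than the chemoreceptor genes. The arms hold unlike kinds of gene, with latency genes in the TGF-beta arm and BMP antagonists in the BMP arm. Ligand genes alone passed in 3 of 3 (TGF-beta) and 3 of 6 (BMP) cases, and receptor genes in 3 of 3 and 3 of 5. The exception in the TGF-beta arm was Ltbp2. In the BMP arm 4 further genes passed in replicate 2 only and 5 on neither, and without replicate 1 its count was 13 of 18. In the activin arm 2 further genes, Inha and Acvr1b, passed in replicate 2 only and 5 on neither. Its count was 3 of 8 without replicate 1 and 0 with the 99th percentile. Without replicate 1 the share over all named genes was also higher, 38.6%, with the lower threshold of replicate 2 alone. With the 99th percentile that share was 19.8%. Median signals were 10.13 in the TGF-beta arm, 7.37 in the BMP arm, 5.16 in the activin arm and 8.76 among shared genes. In the BMP and TGF-beta arms the range within the arm was wider than the gap between their medians. It ran from 3.36 (Nog) to 12.20 (Bmpr2) in the BMP arm and from 5.38 (Ltbp2) to 16.15 (Thbs1) in the TGF-beta arm. The activin arm was narrower, from 4.16 (Acvr1c) to 7.17 (Acvr2a). Genes are not replicates, and the assignment of genes to arms was made by hand, so no test of the difference between arms is given.

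**Figure D2:**
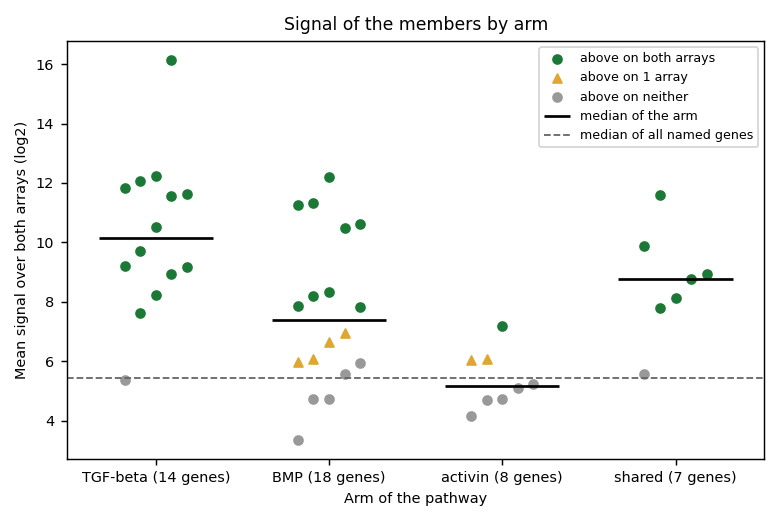
Mean log2 signal over both arrays of each gene (points) by arm, with the median of the arm as a bar and the median of all named genes (5.43) as a dashed line. The medians are 10.13 (TGF-beta), 7.37 (BMP), 5.16 (activin) and 8.76 (shared), and the BMP arm holds genes on either side of the dashed line.

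Marker genes of other cell types were above the threshold on the same arrays. The share to set beside the marker counts is the 38.9% of protein-coding genes other than the chemoreceptor genes that passed on both arrays. All 7 measured fibroblast markers were above the threshold, with a median of 13.54 in replicate 1 and 14.86 in replicate 2. Of these, Dpt lay at the highest value of each array, so its level may be a lower bound. Dcn (19.28 and 19.34) lay under that value but differed between the arrays by the same step, so its difference was read as set by a ceiling. Whether a ceiling acts on either gene was not tested. The summed linear signal of the other 5 was 4.71e+04 and 8.6e+04. Smooth muscle markers were above it in 5 of 5 cases, epithelial markers in 10 of 10 and macrophage markers in 7 of 8. Summed linear signals on the arrays of replicates 1 and 2 were 8.4e+03 and 9.77e+03 for smooth muscle, 9.71e+04 and 1.03e+05 for epithelium, and 3.7e+04 and 3.81e+04 for macrophages. For B and plasma cells they were 1.92e+05 and 2.98e+05, most of it from Jchain, the antibody joining chain gene, at 17.47 and 18.11. In the same list Xbp1 had 13.24 and 13.76 and Cd79a 6.76 and 7.41, while Pax5 (4.86 and 4.86) was under the threshold. As probes differ in affinity, these sums do not rank the cell types. Endothelial markers passed in 3 of 8 cases and platelet markers in 1 of 4, that of Pf4 (11.44 ± 0.16, SD, n = 2).

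The labelled cell type was checked on 7 measured innate lymphoid markers, of which 5 passed. Id2 had 12.23 in replicate 1 and 11.93 in replicate 2, and Il7r had 8.52 and 9.32, whereas Thy1 (5.56 and 5.72) and the natural killer receptor gene Ncr1 (4.63 and 4.71) did not pass. General leukocyte markers passed in 5 of 5 cases and B and plasma cell markers in 4 of 5. T cell markers also passed in 5 of 8 cases, among them Cd3e (9.68 and 9.90) and Cd3g (8.97 and 9.25). Cd247 (5.32 and 4.94), Cd8a (5.33 and 5.33) and Themis (5.54 and 5.86) were under the threshold on both arrays. Genes that stromal cells are known to express, such as Bmp4, Bmp5, Grem1, Tgfb3, Ltbp4 and Tgfbi, and genes shared with macrophages and platelets, such as Thbs1, were measured beside these markers, and the part of other cells in their signals was not tested. In bulk RNA, fewer cells of a type and less RNA per cell cannot be told apart.

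**Figure D3:**
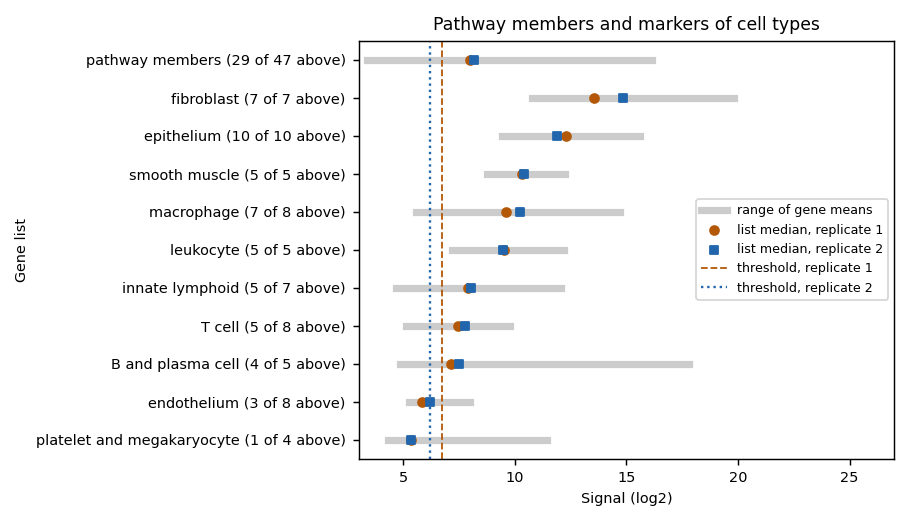
Median log2 signal of the pathway genes and of each cell type marker list in replicate 1 (circles) and replicate 2 (squares), with the range of gene means (grey bars) and each array's threshold (vertical lines). The fibroblast list has medians of 13.54 and 14.86 and the endothelial list 5.83 and 6.18.

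Between the arrays, the pathway genes leaned toward replicate 2. Differences were taken as replicate 2 minus replicate 1, after subtracting the median over all named genes (-0.05). Of the 47 genes, 39 were higher in replicate 2 and 8 in replicate 1, with a median centred difference of 0.21. The median over all named genes is 0.00 by this centring. Of protein-coding genes other than the chemoreceptor genes, 9114 of 16395 were higher in replicate 2 (55.6%), with a median of 0.04. Among the 29 pathway genes above the threshold, 24 were higher in replicate 2 (82.8%), with a median of 0.29. Among all protein-coding genes above the threshold other than the chemoreceptor genes, 4056 of 6373 were (63.6%), with a median of 0.13. The lean was shared by the ligand genes, of which 11 of 12 were higher in replicate 2, and by the BMP arm, with 17 of 18. In the TGF-beta arm it held for 10 of 14.

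Bmp4 and Lrrc32 were the only genes of the 29 that differed by more than 2-fold, both toward replicate 2, with centred differences of 1.17 and 1.13. Over all 8972 genes above the threshold, 2.18% were more than 2-fold higher in replicate 2 and 1.97% in replicate 1. Under quantile normalization Bmp4 stayed past 2-fold with 1.02 and Lrrc32 did not with 0.98. Tgfbr1 came next with 0.83, and Smad3 was lowest with -0.18. Of the genes above the threshold in replicate 2 only, Bmp2 differed by 0.91 and Bmp7 by 0.79. Each difference is of 1 array against 1 and has no replicate check.

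Several marker lists leaned the same way. For scale, protein-coding genes above the threshold other than the chemoreceptor genes had a median centred difference of 0.13, with 63.6% higher in replicate 2. Some lists also hold markers under the threshold. Over all protein-coding genes other than the chemoreceptor genes the values were 0.04 and 55.6%. Of the 7 fibroblast markers, Dpt and Dcn were left out here, after the data were seen. Their difference was read as set by a ceiling, which was not tested. The other 5 were all higher in replicate 2, with a median centred difference of 1.74 (0.54 with all 7). The collagen genes Col1a1 (1.74), Col1a2 (1.89) and Col3a1 (2.08) differed more than any pathway gene, Col6a1 differed by 0.54 and Lum by 0.05. All 5 markers of B and plasma cells were higher in replicate 2 (median 0.57), Jchain among them at 0.69, as were 4 of 5 for smooth muscle (median 0.18). Macrophage markers had a median of 0.39 with 5 of 8 higher, T cell markers 0.16 with 5 of 8 higher, and epithelial markers 0.02 with 5 of 10 higher. Innate lymphoid markers had a median of 0.13 with 4 of 7 higher, and general leukocyte markers 0.02 with 3 of 5 higher. The innate lymphoid median is the value of Ncr1, which was under the threshold on both arrays. The 5 innate lymphoid markers that passed ran from -0.31 (Klrb1b) to 0.85 (Il7r), with Kit in the middle at -0.04. Of the T cell markers, 3 of 8 were likewise under the threshold on both arrays. Of cells known to carry GARP beside regulatory T cells, endothelial markers had a median of 0.20 and platelet markers 0.16. Both medians rest mostly on genes near or under the threshold, as 3 of 8 and 1 of 4 passed on both arrays. The platelet marker that passed was Pf4, at 0.28, and the other 3 were above it on neither array. The part of these cells in the differences of Bmp4, Lrrc32 and the other pathway genes was not tested.

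**Figure D4:**
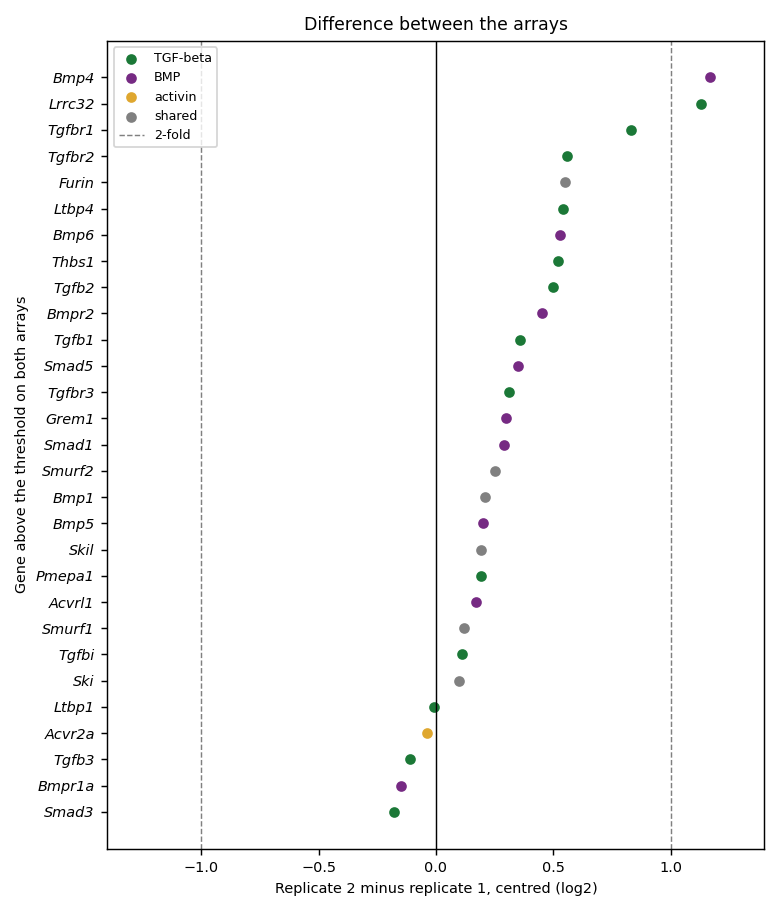
Centred difference of log2 signal, replicate 2 minus replicate 1, for the 29 genes above the threshold on both arrays (rows), coloured by arm, with dashed lines at 2-fold. Bmp4 (1.17) and Lrrc32 (1.13) lie past the right line, and Smad3 (-0.18) is the lowest.

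Other ligands of the superfamily were mostly under the threshold. Of 19 measured growth and differentiation factor, BMP, activin, nodal and related genes, 0 passed on both arrays. On both arrays 38.9% of protein-coding genes other than the chemoreceptor genes and 31.7% of all named genes passed. On 1 array 2 of the 19 passed, Gdf6 (6.20 in replicate 1 and 6.28 in replicate 2) and Gdf10 (6.17 and 6.52). Both passed in replicate 2, where the threshold was lower, and neither reached the 6.74 of replicate 1 on either array. Amh, the anti-Müllerian hormone gene, was at 3.25 and 3.19 and the oocyte factor gene Bmp15 at 3.57 and 3.67. The median signal of this list was 4.29, under the 5.43 of all named genes.

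Among 21 measured extracellular regulators that are not in the list of 47, 9 were above the threshold on both arrays (42.9%), near the 38.9% of protein-coding genes. The BMP-binding glycoprotein gene Fstl1 had 12.46 in replicate 1 and 12.83 in replicate 2. Dcn, encoding the TGF-beta-binding proteoglycan decorin, had 19.28 and 19.34, with its difference read as set by a ceiling. Sost (3.83 and 4.05) and Cd109 (4.24 and 4.44), a TGF-beta co-receptor gene, were under it. Integrins that contain the alpha v chain release latent TGF-beta, and their genes were named after their values were seen. Itgav had 8.51 and 8.91 and the partner chain genes Itgb5 and Itgb3 had 10.14 and 9.77, and 7.54 and 7.80. The partner chain genes best known for this release, Itgb8 (4.95 and 5.45) and Itgb6 (5.36 and 5.63), were under the threshold on both arrays. Nrros, which encodes a carrier of latent TGF-beta on myeloid cells, had 7.37 and 7.74.

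Genes known to respond to TGF-beta or BMP signals were above the threshold on both arrays in 13 of 18 cases (72.2%), against 38.9% of protein-coding genes. Of these 18, some also belong to the 47, and Id2 and Col1a1 are also counted among the innate lymphoid and fibroblast markers. Gadd45b had 14.77 in replicate 1 and 14.74 in replicate 2, and Fn1, encoding the matrix protein fibronectin, had 14.49 and 15.01. The BMP-responsive homeobox genes Msx1 (3.90 and 3.81) and Msx2 (4.12 and 3.70) were under the threshold. Named after their values were seen, the inhibitor of DNA binding genes Id1 (7.90 and 7.59) and Id3 (9.45 and 10.04) passed, as did Itgae (7.06 and 7.42), which encodes the CD103 chain of intraepithelial lymphocytes. Ccn2, a TGF-beta target of fibroblasts, was at 5.07 and 5.04, while the fibroblast markers on the same arrays passed in 7 of 7 cases. All of these genes also respond to other signals, and signalling itself was not measured.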

How the data were processed

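Total RNA of sorted ILCregs was amplified (WT Pico kit, Affymetrix) and hybridised to 2 arrays, per the labels' protocols. The deposited table holds 1 value per feature and array, between 2.10 and 19.86, which was taken as log2 signal from its range. As the log base is not stated, any fold assumes base 2. MAS5 is named in the submitters' processing notes, with no role. How background and scale were handled, and the genome build, is not given in the sources used here. Precision is limited by the number of arrays.

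Of 61344 features, 28573 carried exactly 1 symbol in the platform annotation. Symbols were updated through Entrez identifiers of the GRCm38.p6 gene table, and of several features of a gene the 1 with the highest mean signal was used (none of the 47 genes had several). Of the 1678 chemoreceptor genes, 41 were above the threshold on both arrays. None of the 47 genes shared the step of the highest values, 19.80 and 19.86. All measured members are named. From each other list the 2 genes of highest and the 2 of lowest mean signal are named, save where stated. Markers are given as examples from their lists. The members and lists were chosen with earlier results of these data known. Calls, centring and the 2-fold limit were tested on simulated data, where chemoreceptor genes and genes not planted as high had the same distribution. That checks the code and not the calls on these arrays. Python 3.11.15, pandas 2.3.3 and NumPy 2.4.6 were used. Alternatives were other thresholds, another set of genes for the threshold, symbols, feature choice, quantile normalization and each array alone.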

Additional observations from a re-analysis of the deposited data

How the results depend on the processing

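The count of pathway genes above the threshold was 31 with the 90th percentile, 24 with the 99th, 30 with keratin-associated protein and Rhox genes as the reference, and 29 with the median over features or with symbols not updated. Without replicate 1 or replicate 2 it was 29 to 35. Over all named genes the share above it was 31.7% in the main setting, 39.0% with the 90th percentile, 19.8% with the 99th, 34.4% with the other reference and 38.6% without replicate 1. The count of the TGF-beta arm was 12 to 13 under these settings and that of shared genes 5 to 6. The count of the BMP arm ran from 7 (99th percentile) through 11 (90th percentile) to 13 of 18 (without replicate 1). That of the activin arm was 0 with the 99th percentile and 1 to 3 without a replicate, and Acvr2a was the gene lost. The other superfamily ligands had 1 with the 90th percentile and 0 to 2 without a replicate. Lost with the 99th percentile were Acvr2a, Smad1, Smad3, Smad5 and Smurf2. Bmp3 and Bmp7 were gained with the 90th percentile, and Bmp7 with the other reference. Gained without replicate 1 were Bmp2, Bmp3, Bmp7, Inha, Acvr1 and Acvr1b.

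The median signal of the pathway genes was 8.01 to 8.15 without a replicate. Taken only over genes above the threshold it was 9.72, with 10.53 in the TGF-beta arm, 10.50 in the BMP arm, 7.17 for the 1 activin gene and 8.85 for shared genes, higher by construction. The count past 2-fold was 1 after quantile normalization, where Lrrc32 was at 0.98; the lean toward replicate 2 held there for 40 of 47 genes. No paired analysis was possible because the series has 1 group. Genes near the threshold are limited by the signal over background of these arrays.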

Other observations

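Intracellular transducers outside the SMAD family were measured in 13 cases, of which 8 (61.5%) were above the threshold on both arrays, against 38.9% of protein-coding genes, and 3 on 1. Tab2, an adaptor of the kinase TAK1 that carries SMAD-independent TGF-beta signals, had 10.11 in replicate 1 and 10.02 in replicate 2. Usp15, a deubiquitinase of the receptor complex, had 8.94 and 9.89. The SMAD partner gene Foxh1 (4.22 and 4.34) and the anti-Müllerian hormone receptor gene Amhr2 (4.63 and 4.65) were under the threshold on both arrays. With the superfamily ligands of reproduction under it as well, Amh at 3.25 and 3.19, neither the ligand nor the receptor gene of this hormone was distinguishable from the chemoreceptor genes.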
